A study of Canis lupus familiaris with 13 samples.

Results

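Genes that type I interferon switches on to restrict viruses were followed in dog tumors through treatment with IMAX, a nanoparticle that carries a cyclic dinucleotide. A list of 40 such genes was matched by symbol to the deposited table. The symbols IFIT1, SAMD9, IFI27 and LGALS3BP matched no row and were not analysed here. The other 36 genes had a row among the 43427 symbols, and 36 of 36 passed the filter on low counts, which kept 20118 genes. The rule for the list uses gene names and no threshold on a measured value, but the list was drawn up with earlier results of these data known.

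Type I interferons bind a receptor made of IFNAR1 and IFNAR2, and the kinases JAK1 and TYK2 then activate a transcription factor complex that turns on interferon-stimulated genes. Their products recognize viral RNA, block its translation, cut it, alter nucleotides, tag proteins with ISG15 or hold virus particles at the membrane. Cyclic dinucleotides are ligands of STING, an adaptor that leads to interferon production, and many interferon-stimulated genes also respond to interferon-gamma or directly to the transcription factors that STING activates.

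Strand-specific libraries, 13 in all, came from biopsies of 4 tumors in 3 adult female companion dogs. All tumors received intratumoral IMAX, in which paclitaxel and the cyclic dinucleotide ride on polyethyleneimine joined to lithocholic acid, at a dose set by body weight. The 4 libraries before treatment came from a soft tissue sarcoma (dog RV, mid mass), a cranial and a caudal mammary tumor of dog CL, and a mammary tumor of dog BM in the middle of the left 5th mammary gland. The 4 early libraries were taken after the second dose, at 2 days in RV and at 1 week in the 3 mammary tumors. Of the 5 late libraries, those of both CL tumors were taken at 1 month and that of BM at 3 weeks after the second dose. Those of RV came 2 weeks after its dose 3, at the injection site and next to it. Each tumor served as its own control, no untreated tumor is among these libraries, and apart from the late RV sites each tumor had 1 library per time, so a change within 1 tumor has no replicate check. Tumor type, dog and the time of the early biopsy cannot be told apart between RV and the mammary tumors.

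Total counts ranged from 11622444 to 29931125 per library, and the 36 genes held at least 16 counts in every library. Markers of cell types moved with time in these bulk samples, in which counts alone cannot tell fewer cells of a type from less RNA per cell. The RV library at 2 days stood apart from RV before treatment. In it 10 epidermis markers summed to 2921 TMM-scaled CPM (counts scaled to a common library size) against 72.4 before. There 8 neutrophil markers summed to 7013 CPM against 74.5, and 10 mesenchymal markers to 3605 CPM against 34588. Such sums were not particular to that library. Epidermis markers summed to 3531 CPM in BM before, and in CL caudal to 264 CPM before and 2137 CPM early. Neutrophil markers summed to 4067 CPM before and 4948 CPM early in CL cranial, and mesenchymal markers to 2314 CPM in BM before. In the RV biopsy at 2 days the paper describes necrosis, many neutrophils and macrophages, and no definitively identified neoplastic cells. Its diagnosis there was granulomatous to pyogranulomatous dermatitis. Whether the same piece of tissue was sequenced is not stated. CL caudal, labeled a mammary tumor, held 341 to 717 CPM of 9 epithelial markers against 3153 to 5225 CPM in CL cranial. BM held 205 CPM of these markers late against 3452 CPM before, with mesenchymal markers at 110898 CPM. The paper's diagnosis of the late BM biopsy included carcinosarcoma and osteosarcoma features. The medians and main counts are given below also without RV or CL caudal, and so are the fitted early changes, among the genes described library by library, that move by over 1.5 times without RV. The part of these cell type differences was not tested.

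The antiviral genes were higher early than before in every tumor by their median, and most of them were lower again late. Their median early change, as a difference in log2 CPM within a tumor, came to 4.13 for RV, 2.26 for CL cranial, 0.66 for CL caudal and 1.10 for BM, against 0.26, 0.01, 0.10 and -0.02 over all genes tested. Late medians were 0.01, 0.32, 0.49 and -0.22 in the same order, the first of them -0.04 with DESeq2 size factors. The summed level of the 36 genes in RV was 739 CPM before, 10047 CPM early, and 669.9 and 854 CPM at the late injection and adjacent sites. CL cranial had 1449, 6563 and 2326 CPM before, early and late, CL caudal had 2691, 3587 and 3727 CPM, and BM had 2168, 4644 and 1883 CPM. In CL caudal alone the late sum lay above the early sum.

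**Figure D1:**
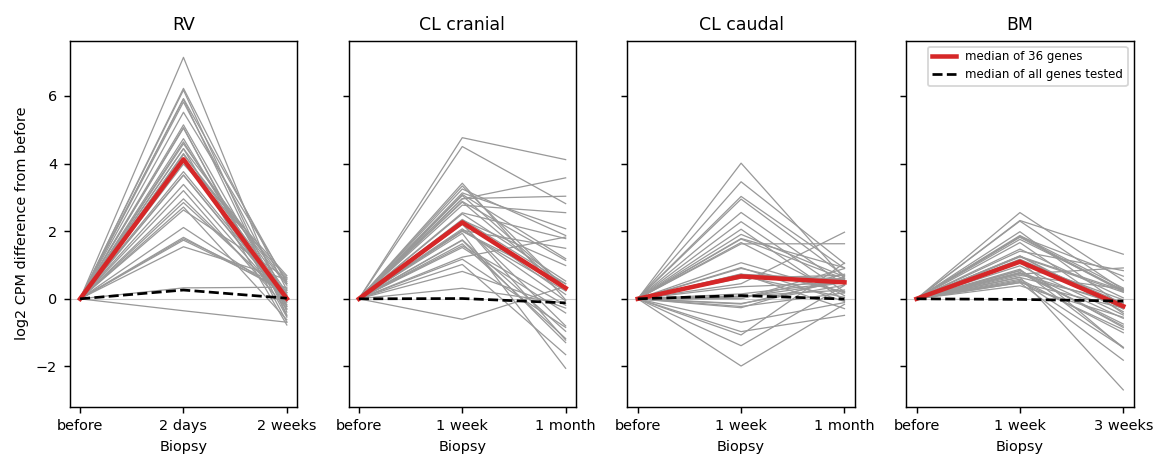
Change in log2 CPM from the same tumor before treatment (vertical axis) at the early and late biopsies (horizontal axis), 1 panel per tumor. Gray lines are the 36 genes, the red line is their median and the dashed line the median of all genes tested. The median peaks at 4.13 in RV and at 0.66 in CL caudal, where lines go in both directions.

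At least 2-fold higher early than before were 34 of 36 genes for RV (39.3% of all genes tested), 33 for CL cranial (16.1%), 13 for CL caudal (29.2%) and 19 for BM (19.1%). The CL caudal share was close to that of all genes tested in that library. SP110 was lower early than before in RV and PLSCR1 in CL cranial, and so were IFIT3, IFIT5, ISG15, RSAD2, PLSCR1, IFI6, IFI44, RTP4 and EPSTI1 in CL caudal. Lower early were 2.78% of the list in RV (45.4% of all genes), 2.78% in CL cranial (49.5%) and 25% in CL caudal (47.1%). USP18, HERC6, DDX60 and IFI35 lay between 0.01 and 0.08 in CL caudal and below 0 with DESeq2 size factors, which shifted the early change of all genes there by a median of -0.10 and in RV by 0.11. In BM 36 of 36 were higher, against 49.1% of all genes. RV had the largest early change of the 4 tumors for 30 genes, and CL caudal had the smallest for 21. These ranks were not counted over all genes. Over all genes the early change was also widest in RV, with quartiles of -1.05 and 2.32. They were -0.43 and 0.63 in CL cranial, -0.77 and 1.22 in CL caudal and -0.73 and 0.74 in BM.

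With tumor as a block over the 13 libraries, the fitted early against before change of the 36 genes had a median of 2.40 on the log2 scale, against 0.25 over all genes tested. Fitted values ran from 0.08 for IFIT5 to 4.04 for ISG20, and 36 of 36 were above 0, as were 12123 of the 20118 genes tested. No gene of the list had an adjusted p under 0.05 in edgeR's quasi-likelihood test, where 1 gene of all did (0.00497%), and the smallest adjusted p in the list was 0.116. At an unadjusted p under 0.05, 32 of 36 were higher, against 7.70% of all genes. The exceptions were IFIT5, ISG15, PLSCR1 and SP110. DESeq2, the alternative count model, called 27 of 36 higher at its adjusted p of 0.05, against 4.13% of all genes to which it gave an adjusted p. Without RV the median was 1.35 and 22 genes had an unadjusted p under 0.05, and without the RV 2-day library alone these were 1.34 and 24. Without CL caudal they were 2.66 and 33. With either late RV site alone, 28 genes had an unadjusted p under 0.05. Shares of all genes at this level are not given for these omissions, here or below.

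Late against before, the fitted median was 0.05, against -0.05 over all genes, and it was 0.16 without RV and -0.11 without CL caudal. Values ran from -0.91 for DHX58 to 1.43 for ISG20. By edgeR and by DESeq2, 0 of 36 genes passed an unadjusted p of 0.05, against 1.28% of all genes higher and 2.72% lower, and by edgeR's adjusted p 0% of all genes passed. DESeq2 called 7 genes of all. Late against early, the median was -2.21, against -0.35 over all genes, and 29 of 36 genes were lower at an unadjusted p under 0.05 (17.7% of all genes). The smallest adjusted p of the list was 0.0603 in edgeR, which called 2 genes of all (0.00994%), and DESeq2 called 29 of 36 lower (16.9%). Without RV, 18 genes had an unadjusted p under 0.05 in this comparison and the median was -1.21, and without CL caudal these were 32 and -2.71. With either late RV site alone, 23 genes had an unadjusted p under 0.05.

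**Figure D2:**
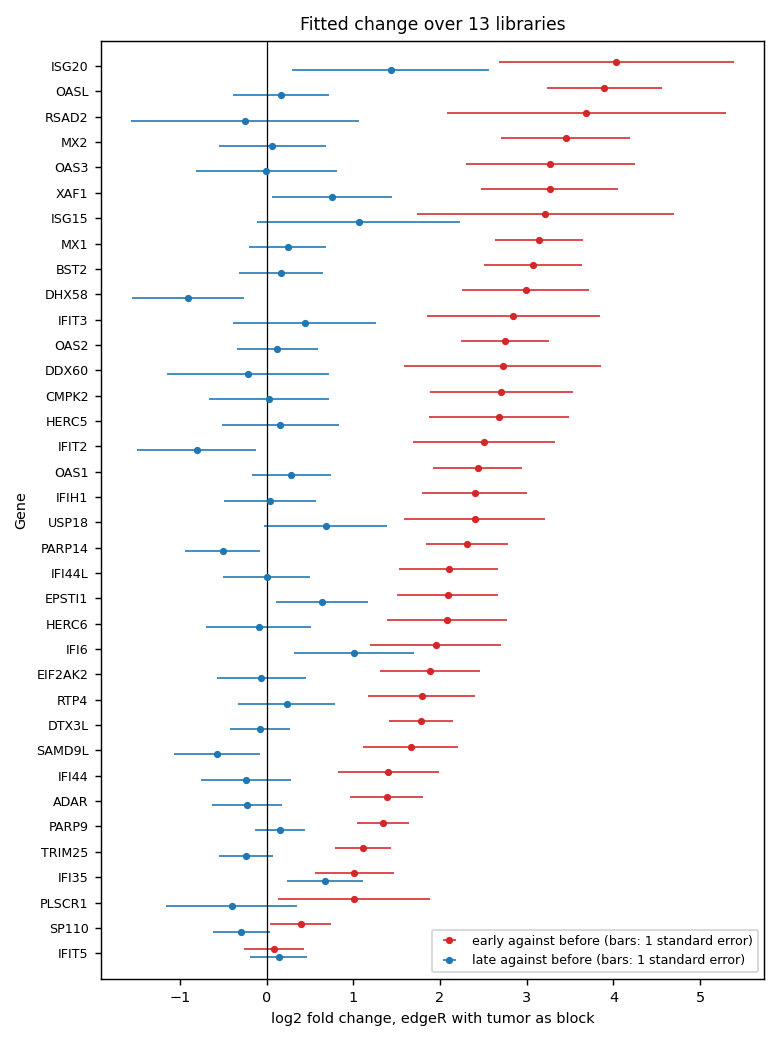
Fitted log2 fold change over the 13 libraries (horizontal axis; bars are 1 standard error) for each of the 36 genes (vertical axis), early against before in red and late against before in blue. The red points run from 0.08 to 4.04 and the blue points lie between -0.91 and 1.43.

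Libraries were also compared directly. In 26 of 36 genes the early library was above the before library in each of the 4 tumors (10.8% of all genes), and in 22 with DESeq2 size factors. Without CL caudal it was 34 genes (17.9%), and without RV 27 (15.6%). In 18 genes the 4 early libraries stood above all 4 libraries before treatment (2.71%), and in 16 above all 5 late libraries (4.49%). For 13 genes, OAS1, OASL, MX1, DHX58, EIF2AK2, ADAR, CMPK2, BST2, SAMD9L, PARP9, PARP14, DTX3L and IFI44L, the 4 early libraries stood above all 9 others (0.915%). A return, with the early level above both the before and the late level in each tumor, was seen in 18 genes (5.91%), and in 30 genes when CL caudal was left out, against 10.1% of all genes.

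**Figure D3:**
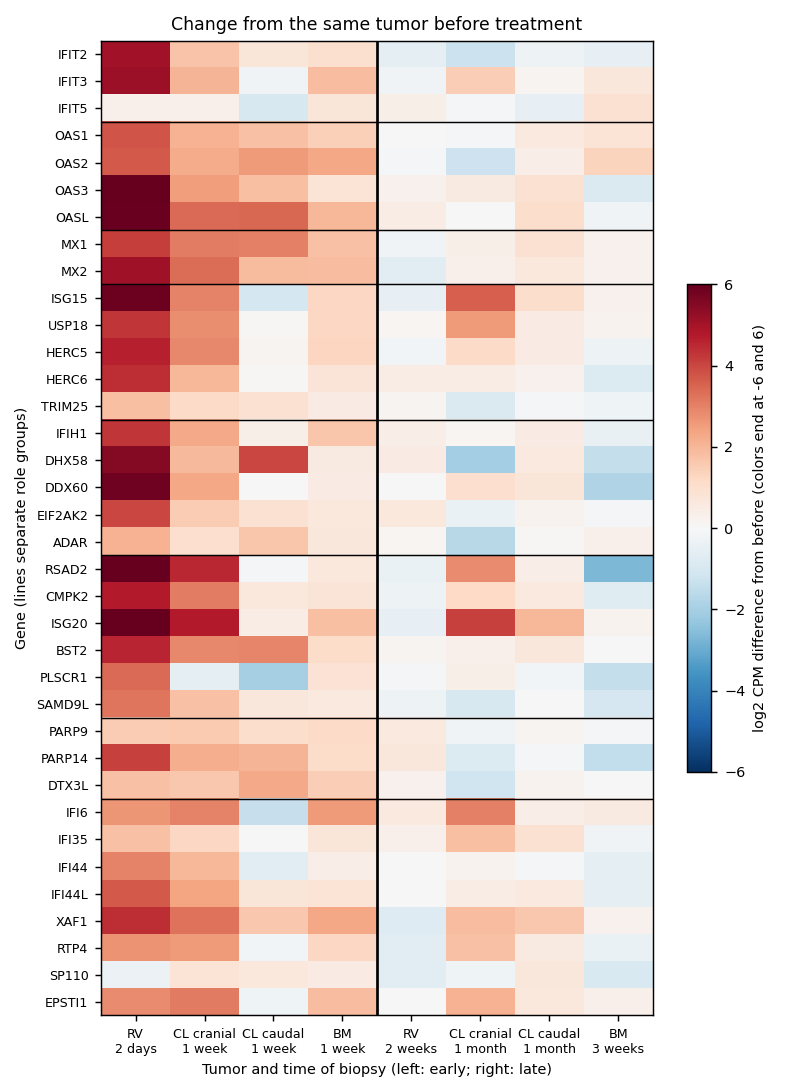
Difference in log2 CPM from the same tumor before treatment for the 36 genes (rows, with lines between role groups) in each tumor early (left) and late (right). Red is higher and blue lower than before, and colors end at -6 and 6. In the CL caudal column the OAS and MX groups are red while ISG15, PLSCR1 and IFI6 are blue.

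Values of single genes follow by role, always in the order RV, CL cranial, CL caudal and BM, with the late RV injection site before the adjacent site. The levels are CPM scaled by TMM and are not corrected for gene length, so they compare libraries and not genes. Gene positions are those of the RefSeq annotation of the dog assembly UU_Cfam_GSD_1.0.

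The IFIT proteins bind foreign RNA and hold it back from translation, and IFIT2 and IFIT3 are neighbors on chromosome 4 (380558 to 389253 and 402330 to 423652). IFIT2 was at 4.40, 9.15, 8.61 and 17.8 CPM before, at 148, 30.6, 14.4 and 35.1 CPM early, and at 2.31, 3.87, 3.67, 7.03 and 12.7 CPM late. Each tumor was highest early and the early levels lay above the 5 late ones, though CL caudal early lay below BM before. The means were 9.99 ± 5.61 before, 57.1 ± 61.5 early and 5.92 ± 4.18 CPM late (SD, n = 4, 4 and 5), and the fitted early change was 2.51 with a standard error (SE) of 0.82 (adjusted p = 0.304), or 1.21 without RV. IFIT3 was at 5.40, 0.775, 1.26 and 11.1 CPM before, at 194, 3.46, 1.06 and 39.9 CPM early, and at 5.29, 4.05, 2.36, 1.43 and 17.6 CPM late. It was high early in RV and BM and near 1 CPM throughout in CL caudal, which held 21, 26 and 21 counts, so its groups overlapped. IFIT3 had a fitted early change of 2.85 (SE 1.0, adjusted p = 0.348), or 1.30 without RV. IFIT5, on chromosome 28, had a fitted early change of 0.08 (SE 0.34, adjusted p = 0.926), with early means of 75.9 ± 20.6 CPM against 76.2 ± 39.0 CPM before.

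OAS enzymes make a messenger that activates RNase L, which cuts RNA, while OASL lacks that enzyme activity and acts with RIG-I. OAS1, OAS3 and OAS2 lie side by side on chromosome 26 from 10710236 to 10772738, and OASL lies apart on the same chromosome at 17181921 to 17194967. In each of the 4 tumors 4 of 4 members were higher early, with medians of 4.84, 2.37, 2.17 and 1.70 on the log2 scale. OASL was at 5.80, 17.3, 6.52 and 28.7 CPM before, at 358, 186, 72.8 and 114 CPM early, and at 6.24, 10.3, 17, 13.6 and 24.4 CPM late. Every early library stood above every other library, and the late levels spread over the same range as those before. Its means were 14.6 ± 10.8, 183 ± 126 and 14.3 ± 6.92 CPM, with a fitted early change of 3.89 (SE 0.66, adjusted p = 0.117) and a late against early change of -3.73 (SE 0.59, adjusted p = 0.0603). OAS3 was at 3.07, 18.5, 12.3 and 46.8 CPM before, at 236, 106, 42.7 and 84.0 CPM early, and at 3.19, 4.29, 26.7, 23.4 and 26.0 CPM late. Its highest level before, in BM, lay above its lowest early one, in CL caudal, while no late library reached an early level. OAS3 had a fitted early change of 3.27 (SE 0.97, adjusted p = 0.265), or 1.68 without RV. OAS1 and OAS2 had fitted early changes of 2.44 (SE 0.51) and 2.75 (SE 0.51), with adjusted p of 0.142 and 0.117.

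MX1 and MX2 are dynamin-like GTPases that trap viral nucleoproteins, and they are neighbors on chromosome 31 (35791284 to 35815851 and 35736514 to 35768675). MX1 was at 32.6, 60.6, 40.9 and 153 CPM before, at 577, 504, 334 and 519 CPM early, and at 23.1, 33.2, 76.6, 76.5 and 183 CPM late. The early levels were close to each other and above the 9 other libraries, and BM was the highest tumor both before and late. Means were 71.8 ± 55.6, 484 ± 104 and 78.5 ± 63.4 CPM, with a fitted early change of 3.14 (SE 0.51, adjusted p = 0.116) and -2.90 (SE 0.46, adjusted p = 0.0603) late against early. MX2 was at 11.5, 18.2, 14.7 and 47.7 CPM before, at 389.9, 185, 55.4 and 171 CPM early, and at 6.65, 7.62, 22.4, 23.2 and 56.3 CPM late. CL caudal early stood just below BM late, and above every library before treatment. MX2 had a fitted early change of 3.45 (SE 0.74, adjusted p = 0.143).

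ISG15 is a ubiquitin-like tag, HERC5 attaches it to new proteins, USP18 removes it and also dampens the interferon receptor, and TRIM25 is a ubiquitin ligase that helps RIG-I signal. ISG15 was at 19.6, 43.4, 421 and 81.6 CPM before, at 1176, 337, 201 and 195 CPM early, and at 14.9, 12.8, 519, 878 and 96.4 CPM late. RV and BM peaked early, CL cranial kept a high level late, and CL caudal was lower early than before and highest late, so the groups overlapped. Means were 142 ± 188, 477 ± 470.2 and 304 ± 383 CPM, and the fitted early change of 3.22 had an SE of 1.48 (adjusted p = 0.462) and was 1.01 without RV. HERC5 was at 5.13, 9.0, 26.1 and 16.3 CPM before, at 130.4, 66.9, 28.9 and 39.4 CPM early, and at 4.48, 4.60, 19.9, 36.9 and 13.1 CPM late. All early levels lay above those before, the nearest pair being both from CL caudal. HERC5 had a fitted early change of 2.68 (SE 0.81, adjusted p = 0.272), or 1.5 without RV, and the changes of USP18, HERC6 and TRIM25 ran from 1.11 to 2.40. HERC5 and HERC6 are neighbors on chromosome 32.

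Among the RNA sensors, IFIH1 (MDA5) detects long double-stranded RNA, DHX58 (LGP2) regulates it, DDX60 is a related helicase, EIF2AK2 (PKR) halts translation and ADAR edits double-stranded RNA. All 5 were higher early in each tumor, except that DDX60 in CL caudal turned with DESeq2 size factors. DHX58, on chromosome 9 (20661655 to 20670075), was at 3.33, 40.6, 6.22 and 83.4 CPM before, at 157, 156, 102 and 121 CPM early, and at 5.09, 4.54, 9.70, 9.48 and 30.7 CPM late. Its levels before were spread over the tumors and its early levels were not, and the early libraries stood above the 9 others. Means were 33.4 ± 37.4, 134 ± 27.0 and 11.9 ± 10.8 CPM, with fitted changes of 2.99 early against before (SE 0.73, adjusted p = 0.172) and -3.90 late against early (SE 0.66, adjusted p = 0.0603). DDX60 was at 9.93, 104, 226 and 146 CPM before, at 567, 523, 227 and 204 CPM early, and at 10.3, 9.43, 206, 374 and 41.5 CPM late. It was high early in RV and CL cranial, while CL caudal held the same level before and early and a higher one late. The fitted early change of DDX60 was 2.72 (SE 1.13, adjusted p = 0.432), or 0.95 without RV, and those of IFIH1, EIF2AK2 and ADAR ran from 1.38 to 2.40.

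Nucleotide, nuclease and membrane effectors include RSAD2 (viperin), which makes a chain-terminating nucleotide, its neighbor CMPK2, a nucleotide kinase, the exonuclease ISG20, BST2 (tetherin), which holds virions at the cell surface, and the scramblase PLSCR1. RSAD2 and CMPK2 lie on chromosome 17 (4500286 to 4520826 and 4478967 to 4492134). RSAD2 was at 6.80, 11.5, 93.9 and 60.9 CPM before, at 973, 262, 85.3 and 95.1 CPM early, and at 6.44, 4.11, 81.4, 124 and 9.32 CPM late. The 973 CPM in RV was the largest early change of any listed gene in any tumor, 7.14 on the log2 scale, while CL caudal moved by -0.14. The fitted early change was 3.69 with an SE of 1.61 (adjusted p = 0.447), or 1.37 without RV. ISG20 was at 4.20, 2.03, 7.12 and 11.6 CPM before, at 310.0, 57.9, 9.74 and 41.0 CPM early, and at 3.87, 2.30, 36.9, 28.2 and 13.3 CPM late. It was higher early in each tumor, and in both CL tumors it was at least 2-fold above before at 1 month. In CL caudal the early change was only 0.45 on the log2 scale, and the late level lay 1.52 above the early one. The fitted early change of ISG20 was 4.04 (SE 1.36, adjusted p = 0.328), or 2.24 without RV.

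PLSCR1 was at 3.13, 53.0, 109 and 15.4 CPM before, at 33.6, 34.8, 27.3 and 28.3 CPM early, and at 3.66, 2.30, 68.6, 97.0 and 5.63 CPM late. Early levels were nearly equal in the 4 tumors, above before in RV and BM and below before in both CL tumors. It was the one gene lower early in more than 1 tumor, with early means of 31.0 ± 3.75 CPM against 45.0 ± 47.4 CPM before and a fitted change of 1.01 (SE 0.87, adjusted p = 0.638), which was -0.32 without RV. CMPK2, BST2 and SAMD9L had fitted early changes from 1.66 to 3.07. BST2 means were 67.1 ± 65.1 CPM before, 373 ± 128 CPM early and 64.3 ± 55.9 CPM late (SD, n = 4, 4 and 5).

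PARP9 and DTX3L form a complex that modifies histones and viral proteins, and PARP14 is an ADP-ribosyltransferase. They lie together on chromosome 33 from 26276577 to 26433388, and the spans of PARP9 and DTX3L overlap by 412 bases. Whether the counting used strand is not given in the sources used here, so reads in that overlap are uncertain. PARP14 was at 7.33, 29.2, 18.4 and 36.4 CPM before, at 128, 135, 76.8 and 78.6 CPM early, and at 9.50, 14.8, 16.7, 17.7 and 13.2 CPM late. Early libraries stood above the 9 others and the late levels were narrow, at 14.4 ± 3.24 CPM. The fitted change of PARP14 was 2.31 early against before (SE 0.47, adjusted p = 0.142) and -2.82 late against early (SE 0.43, adjusted p = 0.0603). DTX3L was at 36.8, 48.1, 19.0 and 36.1 CPM before, at 123, 149, 92.5 and 100.3 CPM early, and at 31.7, 60.2, 21.2, 21.9 and 36.8 CPM late. Its early change ran from 1.47 in BM to 2.28 in CL caudal, with a fitted value of 1.78 (SE 0.37, adjusted p = 0.142). That of PARP9 ran from 1.07 in CL caudal to 1.57 in CL cranial.

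The other interferon-induced genes were XAF1, an antagonist of the apoptosis inhibitor XIAP, EPSTI1, IFI6, which sits in the mitochondria and endoplasmic reticulum, IFI35, IFI44, IFI44L, the chaperone RTP4 and the nuclear body protein SP110. XAF1 was at 3.27, 8.86, 7.48 and 19.3 CPM before, at 73.0, 85.0, 23.3 and 95.4 CPM early, and at 2.31, 1.51, 32.7, 23.3 and 23.2 CPM late. Early levels were above those before in all 4 tumors and their libraries did not overlap, but in CL caudal the level was the same late as early. The fitted early change of XAF1 was 3.26 (SE 0.79, adjusted p = 0.169). EPSTI1 was at 52.2, 14.2, 52.5 and 23.6 CPM before, at 376, 125, 43.8 and 86.7 CPM early, and at 46.4, 61.4, 59.9, 82.1 and 29.4 CPM late. CL caudal was the tumor in which it was lower early, and the groups overlapped through that library, with a fitted early change of 2.09 (SE 0.59, adjusted p = 0.237). Of the rest, IFI6, IFI35, IFI44, IFI44L, RTP4 and SP110 had fitted early changes from 0.39 for SP110 to 2.10 for IFI44L.

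**Figure D4:**
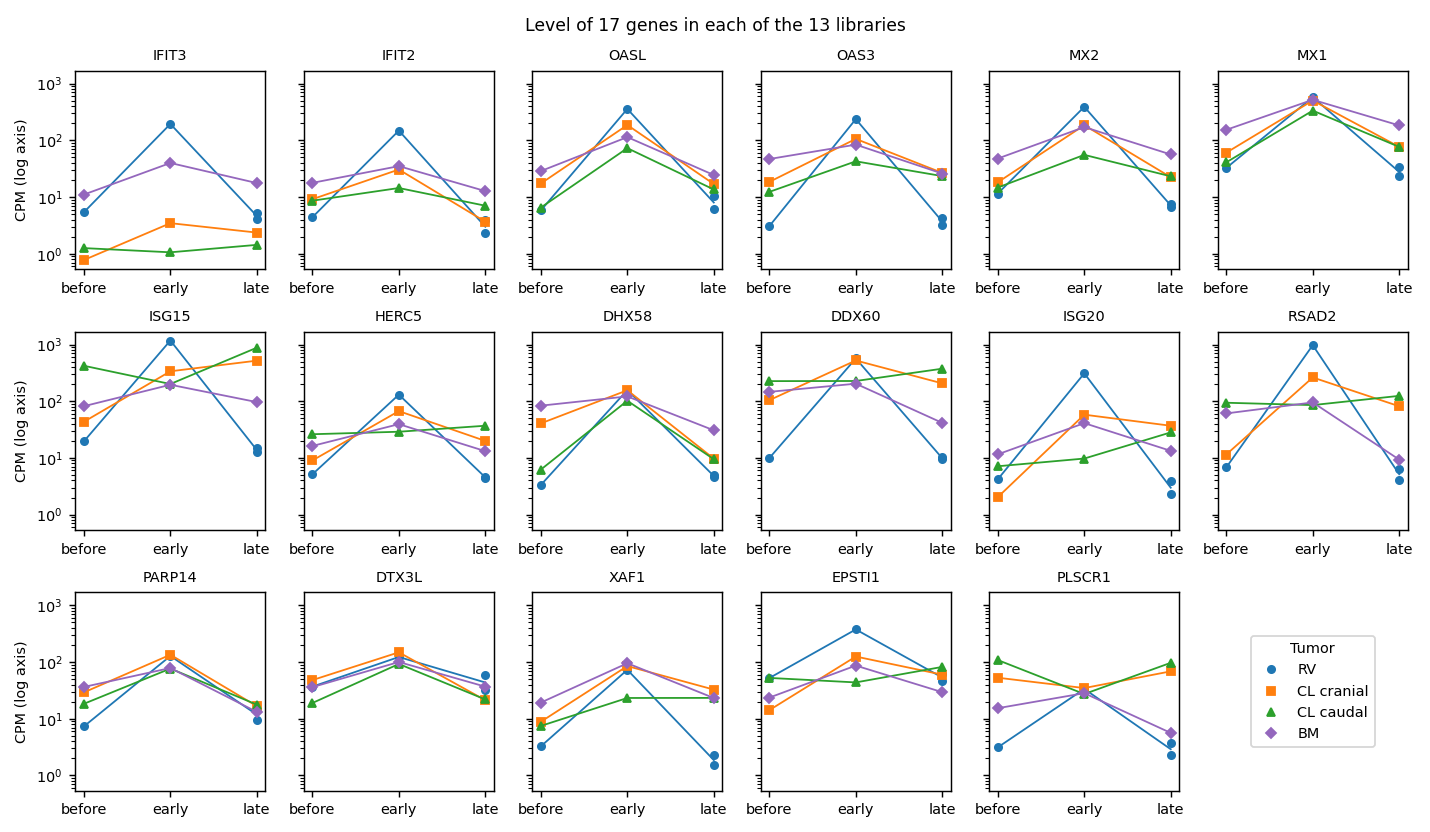
CPM on a log axis for the 17 genes described library by library, before, early and late. Each symbol is 1 library, colors and shapes mark the tumors, and lines join a tumor's libraries through the geometric mean of the late RV sites. OASL, MX1, DHX58, PARP14 and DTX3L peak early in 4 of 4 tumors, while ISG15, RSAD2, EPSTI1 and PLSCR1 in CL caudal (green) do not.

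Levels before treatment differed between tumors, with 1 library each and no test. The ranks of tumors given here were not counted over all genes. RV was the lowest of the 4 for 27 genes. BM was the highest for 17, among them the OAS genes OAS1 and OAS3, OASL, both MX genes, DHX58 and BST2. CL caudal was the highest for 15, among them ISG15 with 7046 counts, USP18, HERC5, RSAD2, IFI44, RTP4, PLSCR1 and EPSTI1. Of the 9 genes lower early in CL caudal, 8 were among these 15, whose median early change there was -0.14 against 1.67 for the remaining genes. In BM the 17 genes that were highest before had a median early change of 1.09 against 1.17 for the remaining genes. A change and the level before share a library, so a high value before by itself lowers the change.

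Early changes in CL caudal went in both directions, as they did over all genes in that library. At least 2-fold higher were 36.1% of the list against 29.2% of all genes, and at least 2-fold lower 8.33% against 18.4%. OAS1, OAS2, OAS3, OASL, MX1, MX2, DHX58, ADAR, BST2, PARP9, PARP14, DTX3L and XAF1 were at least 2-fold higher, up to 4.01 on the log2 scale for DHX58, while PLSCR1, IFI6 and ISG15 were 1.99, 1.39 and 1.07 lower. CL cranial, in the same dog at the same times, had 2.95 for ISG15 and 2.96 for IFI6. Across the 36 genes the Spearman correlation of early changes was 0.63 between RV and CL cranial and 0.56 between CL cranial and BM, and from 0.06 to 0.15 in the other pairs. Over all genes these were 0.43 for RV and CL cranial, 0.17 for CL cranial and BM, -0.18 for RV and BM, and 0.02 to 0.10 for the pairs with CL caudal. Over all genes the early change in CL caudal had a Spearman correlation of 0.36 with the number of genes within 500 kb, and over the 36 genes 0.31. Over all genes this correlation was -0.24 in RV, -0.10 in CL cranial and 0.13 in BM. With an offset for this number, added after the values were seen, 27 of 36 genes were higher early in each tumor in place of 26, and 9.88% of all genes in place of 10.8%.

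Late levels lay near those before in RV, where 36 of 36 genes were within 2-fold of before, as were 86.3% of all genes. Thus 0 genes were at least 2-fold higher (6.15% of all genes) and 0 lower (7.57%). The 2 late RV sites differed by a median of -0.21 on the log2 scale, injection site minus adjacent, and by at most 1.53 in size, for SAMD9L. In CL cranial 12 genes stayed at least 2-fold above before (20.2%), with ISG20 at 4.12, ISG15 at 3.58, IFI6 at 3.03, RSAD2 at 2.82, USP18 at 2.55 and EPSTI1 at 2.07. Another 5 there were at least 2-fold below before (27.8%), namely IFIT2, OAS2, DHX58, ADAR and DTX3L.

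In CL caudal 30 of 36 genes were above before at 1 month (83.3%, against 48.1% of all genes), 4 of them at least 2-fold (7.97%), OASL, ISG15, ISG20 and XAF1, and 0 were at least 2-fold below (7.89%). There 18 of 36 were above their early level (50.0%), close to the 46.6% of all genes. In the other tumors far fewer genes of the list than of all genes were above their early level, 2.78% against 46.6% for RV, 11.1% against 43.2% for CL cranial and 2.78% against 46.2% for BM. In BM 22 of 36 were below before at 3 weeks (61.1%), near the 51.7% of all genes. OAS2 was at least 2-fold above before in BM (21.7% of all genes), and DHX58, DDX60, RSAD2, PLSCR1, SAMD9L and PARP14 were at least 2-fold below (29.1%).

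The early change was set side by side between the sarcoma and the mammary tumors after the values were seen, with an interaction term over the 13 libraries. The paper did not definitively identify neoplastic cells in the early RV biopsy, so the early change in RV may not be that of sarcoma cells. The sarcoma is 1 tumor with 1 library before and 1 early, so the SE and p of this term take their spread from the mammary tumors and from the late RV sites and say nothing of variation among sarcomas. It was larger in RV for 22 of 36 genes at an unadjusted p under 0.05, against 16.7% of all genes, with a median difference of 2.35 against 0.11 over all genes. No gene passed the adjusted threshold in edgeR, and the smallest adjusted p was 0.0913. OAS3 had 6.22 in RV against a mean of 1.71 in the mammary tumors, a difference of 4.59 (SE 0.94, adjusted p = 0.0913). RSAD2 had 7.14 against 1.67, a difference of 5.80 (SE 1.94, adjusted p = 0.123). DTX3L had 1.73 against 1.79, and PARP9 had 1.54 against 1.27, so neither was larger in RV by more than its SE of 0.81 and 0.66. For the late change the median difference, RV minus the mammary tumors, was -0.14 over the list, against 0.15 over all genes.

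The genes of the pathway around the list were read from separate lists in the same fit. Of 9 type I and III interferon ligand genes listed, 6 had a row, with IFNA7 as the only interferon-alpha gene. Ligands under other symbols were not examined. These 6 were close to absent from the counts, with a sum of at most 2.44 CPM in any library. IFNB1 had no count in 7 of 13 libraries. It had counts before in BM alone, early in RV and both CL tumors, and late in both CL tumors. IFNE, the single ligand tested, had a fitted early change of 0.81 (SE 1.11, adjusted p = 0.77). Of 6 receptor genes, IL10RB and IFNGR2 were higher early at an unadjusted p under 0.05, with 1.28 and 0.87, while IFNAR1 had 0.63, IFNAR2 1.03, IFNGR1 0.34 and IFNLR1 0.73. None of the pathway genes passed the adjusted threshold. Over all genes 7.7% were higher early at an unadjusted p under 0.05 in edgeR. That share stands beside each such count for the pathway genes and the cell markers below. Their changes without RV are not given.

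Between receptor and nucleus, STAT2, IRF9 and TYK2 were higher early at an unadjusted p under 0.05 and in each tumor, and were lower late than early at the same level. Their fitted early changes were 1.26, 1.35 and 1.19, with 0.36 for JAK1 and -0.01 for JAK2. IRF9 in CL caudal had 1.99, against 1.76 in RV, although CL caudal had the smallest change for 21 of the antiviral genes.

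Of 11 upstream sensors and adaptors tested, 7 were higher early at an unadjusted p under 0.05. They were the nucleic acid sensor ZBP1 with 4.06, the interferon-inducing factor IRF7 with 3.57, the DNA sensor CGAS with 2.79, STING1 with 2.26, the RNA sensor RIG-I (listed as DDX58) with 2.01, TLR7 with 1.18 and the kinase IKBKE with 1.14. MAVS, TLR3, IRF3 and TBK1 had 1.42, 0.36, -0.13 and -0.28. IRF7 was higher in each tumor, by 5.37, 2.43, 3.20 and 2.29. Of 7 feedback inhibitors, SOCS3, PTPN6 and TREX1 were higher early at this level, with 3.17, 2.15 and 1.54, while SOCS1, PTPN1, PTPN2 and PTPN11 had 1.25, 0.62, 0.18 and -0.22.

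The E1 enzyme for ISG15, UBA7, was higher early with 2.04 (SE 0.51, adjusted p = 0.18), while its E2 enzyme UBE2L6 had 0.64. In CL caudal UBA7 was 2.97 higher early and UBE2L6 moved by -1.44, as ISG15 itself was lower there. Of 10 genes taken as interferon-gamma targets, 6 were higher early at an unadjusted p under 0.05, and the median was 1.81. In CL caudal 4 of these moved down, PSMB8 by -1.20, PSMB9 by -0.89, IDO1 by -0.60 and SOCS1 by -0.21.

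Immune and other cell markers also changed with time, not all as the antiviral genes did, and their part was not tested. Late against before, fitted medians were 1.23 for T cell, 1.11 for B and plasma cell and -1.23 for neutrophil markers. They were 0.45 for macrophage and 0.09 for endothelial markers. In CL caudal neutrophil markers summed to 2224 CPM before and 431 CPM early, and B and plasma cell markers to 454 and 70.4 CPM. The summed level of 10 macrophage markers was 299 to 742 CPM before, 1215 to 3449 CPM early and 367 to 1373 CPM late, and 9 of 10 were higher early at an unadjusted p under 0.05. For 8 T cell markers the ranges were 18.9 to 45.8, 38.7 to 562 and 42.4 to 128 CPM, with 5 of 8 higher. For 8 neutrophil markers they were 74.5 to 4067, 431 to 7013 and 62.0 to 1029 CPM, with 3 of 8 higher, and for 7 endothelial markers 72.9 to 152, 128 to 1652 and 81.9 to 243 CPM, with 6 of 7 higher. For 9 epithelial markers the ranges were 341 to 5225, 165 to 3153 and 205 to 3911 CPM, with 0 of 9 higher, and 0 of 10 mesenchymal markers were higher. For 9 epidermis markers tested, 1 was higher. For 8 B and plasma cell markers the sums were 83.9 to 649, 54.5 to 827 and 69.3 to 1413 CPM, with 2 of 8 higher, and for 5 plasmacytoid dendritic cell markers 62.1 to 306, 124 to 182 and 137 to 343 CPM, with 3 of 5 higher. CL caudal early had the lowest T cell sum of the early libraries, 38.7 CPM, and the lowest neutrophil sum, 431 CPM, and BM early had the highest macrophage sum, 3449 CPM.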

How the data were processed

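RNA from tumor biopsies was sequenced as strand-specific libraries, and reads were aligned by the authors to CanFam4.0 with Strand NGS. The table they deposited holds raw counts per gene symbol for 13 libraries, with no normalization; the counting rule and annotation are not given in the sources used here, so paralogs such as the OAS, MX and IFIT genes and overlapping genes are uncertain. The listed genes, the pathway and marker lists and the role groups were chosen with earlier results of these data known. Groups (before, early and late) follow the labels. The libraries paired as blocks are repeat biopsies from 1 mass, and their deviations from the group means correlated by 0.229 (before and early), 0.587 (before and late) and 0.191 (early and late) on average, against -0.0707, -0.199 and -0.0651 between tumors. The lowest correlations within a tumor were -0.0534, 0.318 and -0.0965 in the same order, so not every early library resembled the others of its tumor. Each pair of libraries differed by more than sampling noise (chi-square over degrees of freedom of 49.4 or more).

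The table was cut by filterByExpr (minimum count 10), scaled by TMM and fitted with tumor and time group in edgeR 4.0.16 (R 4.3.3), by robust quasi-likelihood, with Benjamini-Hochberg adjusted p under 0.05 over 20118 genes. The fit left 7 residual degrees of freedom at a common biological coefficient of variation of 0.672, and it treats the 2 tumors of dog CL as separate. It also treats the 2 late RV sites, which are from 1 mass, as replicates. P-values measure the spread between these biopsies. Changes within a tumor are differences in log2 CPM with a prior count of 2, with the late RV sites averaged. Library values were printed for the 2 genes per role group with the largest mean early change, any gene with an adjusted p under 0.05, and genes lower early in at least 2 tumors. DESeq2 1.42.0, its size factors, no filter, other blocks, omitted tumors or libraries and a prior count of 0.5 were alternatives, and the gene density offset and the sarcoma interaction were added after seeing the data. A gene of the signaling list is not reported here. Of the symbols, 98.0% matched RefSeq. Python 3.11.15, numpy 2.4.6, pandas 2.3.3 and matplotlib 3.10.9 were used.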

Additional observations from a re-analysis of the deposited data

Results flagged for a closer look

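OAS2 in the late BM library stood apart from the 4 other late libraries, at 7.35 log2 CPM against 4.78 to 5.43, so that 1 sample lay far from the rest of its group. It was 1.32 above BM before treatment on the log2 scale. Among the 108 groups of libraries examined over the 36 genes it was the single flag, where chance gives about 5.4.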

How the results depend on the processing

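Over all genes, 1 gene passed edgeR's adjusted threshold early against before. With DESeq2 size factors, no replicate block, dogs in place of tumors as the block, both CL tumors summed, either late RV site alone, only the libraries compared, without the RV early library, or any tumor left out, 0 did, while 17 did with no filter on low counts and 956 with DESeq2. Late against before, 0 passed, and 7 with DESeq2. Late against early, 2 passed, and 0 with these blocks, sums, sites and omissions, but 1081 with no filter and 4809 with DESeq2. The cause was not tested. With 1 tumor left out, the listed genes at an unadjusted p under 0.05 ranged from 22 to 33 early against before, from 0 to 1 late against before (1 without RV) and from 18 to 32 late against early (18 without RV). With no replicate block they were 25, 0 and 26, with medians of 1.89, 0.01 and -1.84, and with or without the block 0 listed genes passed the adjusted threshold. With either late RV site alone, the listed genes at an unadjusted p under 0.05 numbered 28, 0 and 23. Shares of all genes at this level under these settings are not given. Genes with a return in each tumor ranged from 18 to 30 (30 without CL caudal), and were 20 with the gene density offset and 14 with a change of at least 0.5 asked of each tumor.

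The direction turned in 41 single fits. Early against before, 8 values turned, while 466 were classed as the same and 30 as stronger. Late against early, 9 turned, with 447 the same and 48 stronger. Late against before, 24 turned and 214 were the same, and only the genes described library by library were followed there. Early against before, IFIT5 was -0.012 with no filter, -0.0044 with no replicate block, -0.013 with the dog as block and -0.21 to 0.43 with a tumor left out. PLSCR1 was -0.54 with no block, -0.31 without the RV early library and -0.32 to 1.60 with a tumor left out. Late against early, without the RV early library ISG15 was 0.19, PLSCR1 0.15 and IFI35 0.14, and with a tumor left out they ran from -3.50 to 0.49, -2.10 to 0.13 and -0.66 to 0.23, each positive without RV. PLSCR1 was 0.19 there with no block, and IFIT5 was -0.0043 with the late RV injection site alone and -0.032 to 0.19 with a tumor left out.

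Late against before, OASL was -0.031 with no block, and OAS3 was 0.18, 0.21, 0.18 and 0.21 with the injection site, the adjacent site, only the libraries compared and no RV early library. MX2 was -0.038 with CL tumors summed and -0.00077 with only the libraries compared. DDX60 was 0.078, 0.026, 0.017 and 0.025 with no block, the injection site, the adjacent site and no RV early library, and RSAD2 was 0.059, 0.092 and 0.066 with no block, the injection site and the adjacent site. With a tumor left out, OASL ran from -0.10 to 0.39, OAS3 from -0.29 to 0.44, MX2 from -0.13 to 0.41, HERC5 from -0.17 to 0.40, DDX60 from -0.69 to 0.46, RSAD2 from -1.31 to 0.86 and DTX3L from -0.29 to 0.18.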
